A study of Homo sapiens with 15 samples.

Results

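The p53 target genes described here are 35 genes that the tumour suppressor p53 is known to activate. They were chosen by symbol from a list set by hand, with earlier results of these data known. All 35 were found among the 28207 gene symbols of the raw count table, and all 35 were among the 18760 genes with enough counts to be tested. They were measured by RNA sequencing in NTERA2, an established human embryonal carcinoma line. Cells in medium with 10% serum received siRNA on 2 occasions over 7 days. The groups were siIGF2BP1, against an oncofetal RNA-binding protein, siSRF, against a transcription factor of cytoskeletal genes, siFOXM1, against a transcription factor of mitotic genes, siIQGAP3, against a scaffold protein of the IQGAP family, and the control siRNA siControl. Each group had 3 libraries, numbered 1 to 3 in column order only to name them. The labels leave unsaid whether an siRNA was 1 sequence or a pool. They also name no separate cultures, so the p-values reflect variation between libraries that may be purely technical.

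p53 is a transcription factor that is held low by MDM2, a ubiquitin ligase that marks it for degradation. When p53 is stabilised, for example after DNA damage, it activates genes for cell cycle arrest, DNA repair, metabolic control and cell death, and it activates MDM2 itself, which closes a feedback loop. Embryonal carcinoma cells are known to be sensitive to DNA-damaging drugs.

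p53 binds DNA as a tetramer at a pair of decamer half-sites, and the stretches shown here are those that resemble such a site close to the start of a target gene. The 250 bases before each RefSeq start (GRCh38.p14) were searched on both strands for the p53 consensus half-site in a pair. Up to 13 bases could lie between the half-sites, with at most 2 mismatches over both. The central CWWG core of each half-site, where W is A or T, was kept. A pair was found in 2 of 39 promoter entries of 27 members (5.13%), beside 443 of 35116 RefSeq promoter entries (1.26%). The 2 were FAS, a death receptor, and AEN, a nuclease of apoptotic cells. The FAS stretch lies at chr10:88991304-88991333 on the plus strand, with its centre 112 bases before the start. The AEN stretch lies at chr15:88621301-88621330 on the plus strand, 24 bases before the start. Capitals mark the pair of half-sites, each pair with 2 mismatches and a spacer of 0 bases.
FAS: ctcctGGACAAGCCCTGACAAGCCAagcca
AEN: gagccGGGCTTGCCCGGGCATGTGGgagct
A match is a likeness of letters only, and many known p53 sites lie in introns, outside the window searched.

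Libraries held 35275570 to 44996064 counts. Each siRNA lowered its own target gene (log2 fold change -2.26 for IGF2BP1, -3.73 for SRF, -2.28 for FOXM1 and -1.06 for IQGAP3), but not only that gene. All 4 targets passed as lower in siIGF2BP1, SRF, IQGAP3 and FOXM1 in siSRF, IQGAP3 and FOXM1 in siFOXM1, and only IQGAP3 in siIQGAP3. The deposited counts and normalised values disagree for these 4 genes and for the markers POU5F1 and NANOG, whereas all 35 members agreed in both tables (tolerance 1e-06). The libraries of a group did not all lie together. The third siControl library was at least 1 log2 unit above the mean of the other 2 for 22.2% of genes tested and at least 1 log2 unit below it for 19.2%, and the third libraries of siIGF2BP1, siSRF and siFOXM1 stood apart as well, while those of siIQGAP3 did not (0.549% and 0.778%). The summed level of 14 embryonal carcinoma markers was 419 to 538 CPM (counts scaled to library size by the TMM method) in siIGF2BP1, 451 to 536 in siSRF, 294 to 1357 in siFOXM1, 5107 to 5242 in siIQGAP3 and 1803 to 4680 in siControl, the highest control being library 3. In siIQGAP3, ZFP42, LIN28B, DNMT3B and L1TD1 passed as higher and POU5F1, NANOG and LEFTY1 as lower, so the markers did not move together. ZFP42 was at 0 in 1 library each of siIGF2BP1, siSRF, siFOXM1 and siControl. That of 8 fibroblast markers was 5203 to 10883, 4488 to 9317, 6999 to 8822, 2802 to 2836 and 2018 to 8770 CPM in the same order of groups, with DCN at 0 in the third siControl library. Blood and endothelial markers summed to at most 27.2 CPM in any library. The part of these shifts in the results was not tested.

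Under siIQGAP3 a broad set of p53 targets passed as higher than under siControl, but only 6 calls, FDXR among them, were kept without any 1 library. Under the other 3 siRNAs almost none passed, which is not a test of the difference from siIQGAP3. Set directly against siIQGAP3, 13, 4 and 11 members were lower in siIGF2BP1, siSRF and siFOXM1, beside 22%, 17% and 13.9% of all genes. In those contrasts 4, 4 and 3 members were higher, beside 28%, 25.8% and 22.9%. In siIQGAP3, 13 of 35 members rose, beside 10.8% of all genes tested, and 3 fell, beside 21.7%. The genes that rose were MDM2, FBXO22, CCNG1, BAX, AEN, RPS27L, TRIAP1, PHLDA3, TNFRSF10A, SESN1, TP53I3, SPATA18 and RRM2B, and those that fell were BTG1, FDXR and POLH. In siIGF2BP1 1 member rose, CCNG1, beside 0.288% of all genes, and none fell, beside 1.33%. In siSRF and siFOXM1 no member passed in either direction, beside 0.368% and 0.288% of all genes higher and 1.2% and 0.832% lower. At an unadjusted p under 0.05, 4 members were higher in siIGF2BP1, 6 in siSRF, 3 in siFOXM1 and 16 in siIQGAP3, beside 5.01%, 6.03%, 5.18% and 16.8% of all genes. At that level 0, 0, 0 and 3 members were lower, beside 10.1%, 8.49%, 7.31% and 27.1% of all genes. Other tools called 2 members higher in siSRF (DESeq2) or 1 (limma-voom), and neither called any in siFOXM1. The share of all genes called was not computed for these tools, so these counts are not a result about the members. The tests are edgeR's quasi-likelihood F test with Benjamini-Hochberg adjustment over all 18760 genes and a threshold of 0.05. In bulk RNA, fewer cells in a given state and less RNA per cell cannot be told apart.

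**Figure D1:**
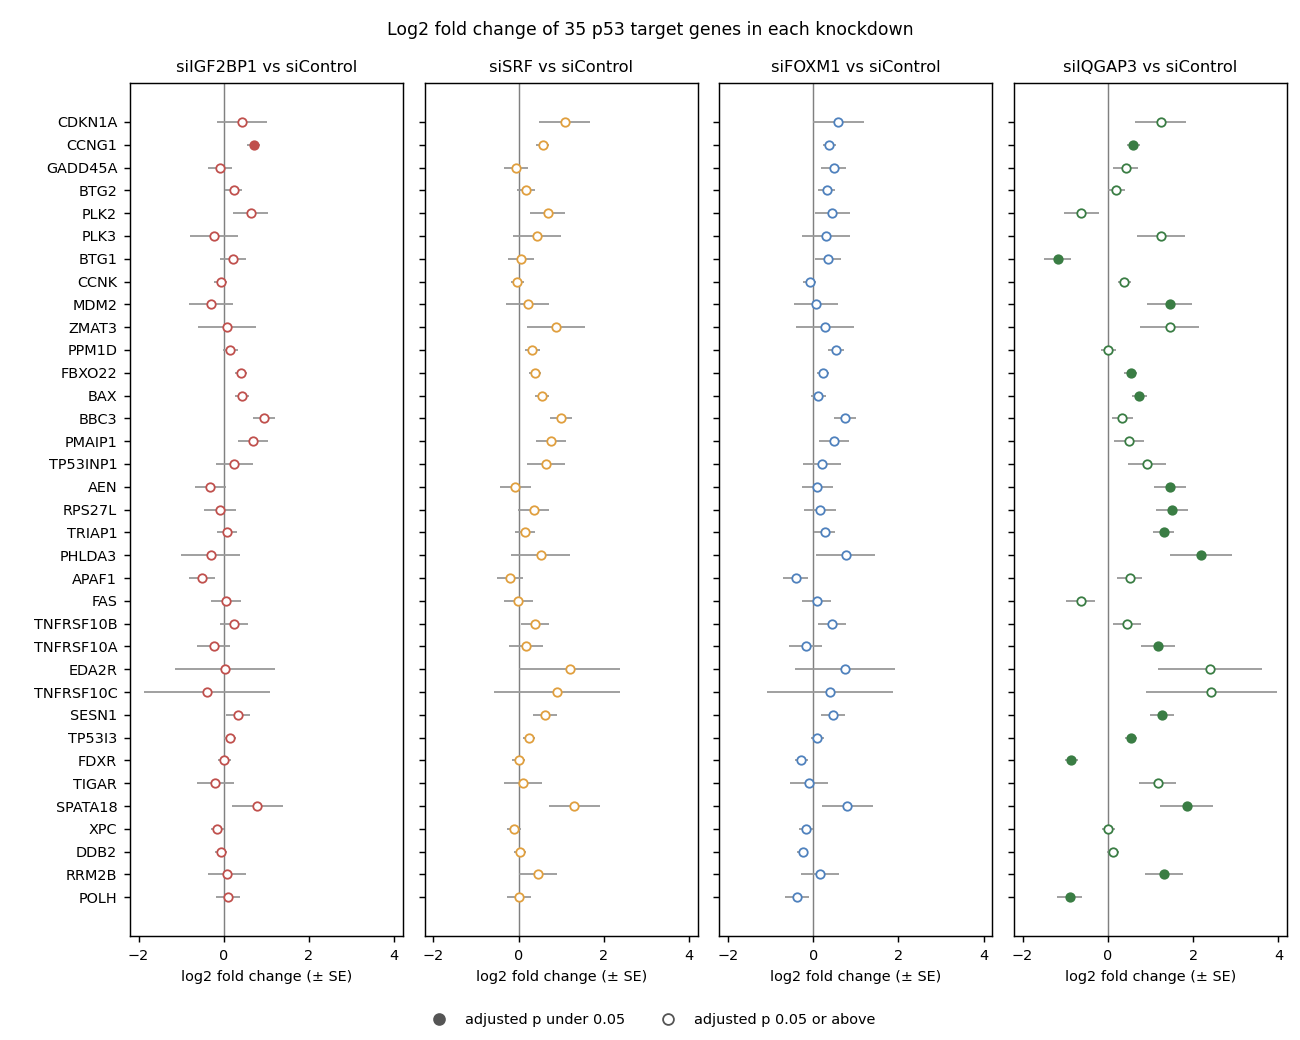
Log2 fold change of the 35 p53 target genes against siControl, 1 panel per siRNA (siIGF2BP1, siSRF, siFOXM1, siIQGAP3), with bars for the SE of the joint fit of 15 libraries and filled points for an adjusted p under 0.05. In siIQGAP3, 13 filled points lie above 0 and 3 below, in siIGF2BP1 1 lies above, and in siSRF and siFOXM1 no point is filled.

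The median log2 fold change of the members was 0.08 in siIGF2BP1, 0.35 in siSRF, 0.27 in siFOXM1 and 0.60 in siIQGAP3, beside 0.01, 0.01, -0.02 and -0.06 over all genes tested. Members with a log2 fold change above 0 numbered 22, 29, 27 and 30 of 35 in the same order, beside 51%, 50.7%, 48.2% and 47.5% of all genes. The 4 comparisons share the same 3 siControl libraries. The siIGF2BP1 median was -0.13 without siIGF2BP1 library 3, the siSRF median was -0.10 without siSRF library 3, and the siFOXM1 median was 0.02 without siFOXM1 library 3. Without the third siControl library the siFOXM1 median was 0.45.

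**Figure D2:**
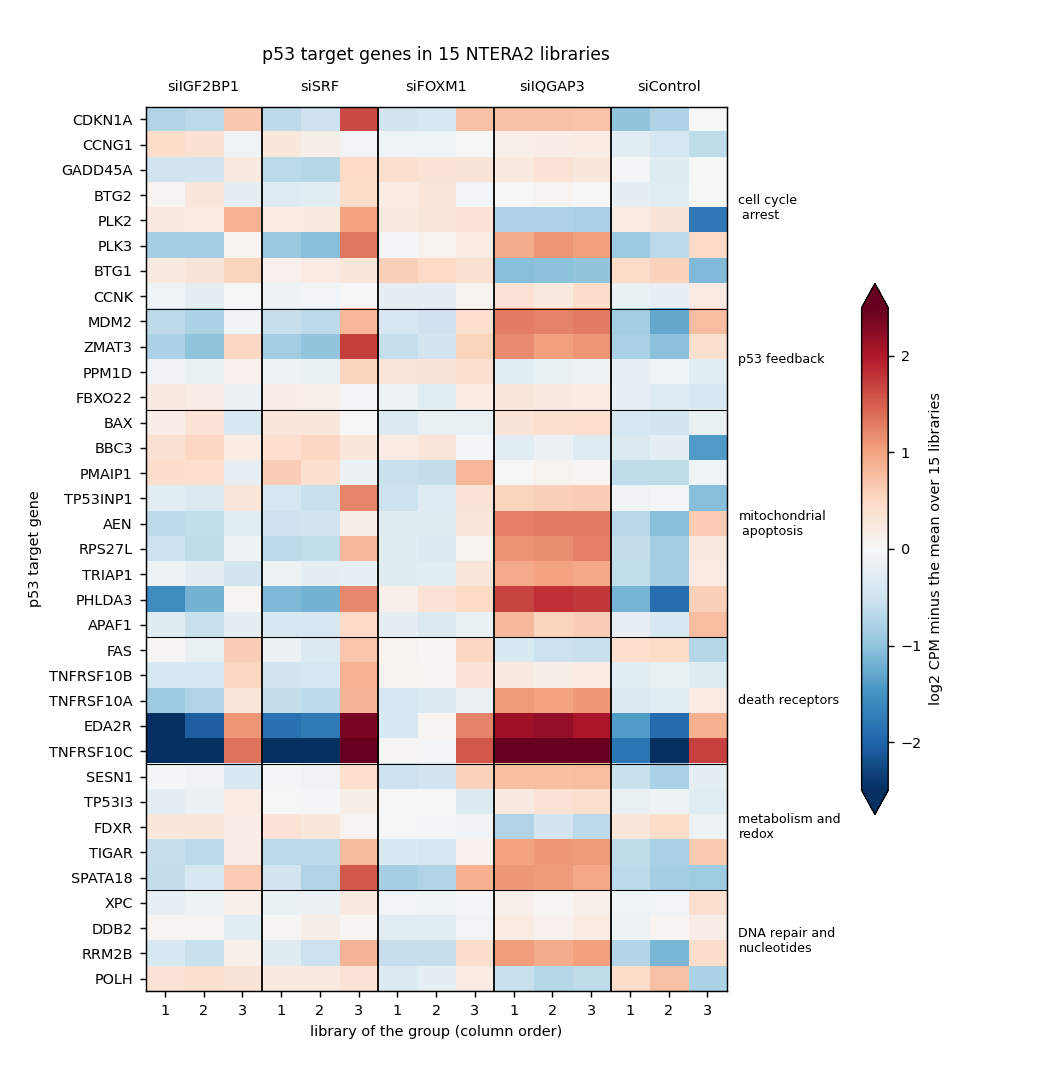
Level of each p53 target gene in each of the 15 libraries, as log2 CPM minus the gene's mean over all libraries, with genes grouped by role down the page and libraries by siRNA across it; colours are cut off at 2.5 log2 units in either direction. The siIQGAP3 libraries are alike, and the third libraries of siIGF2BP1, siSRF, siFOXM1 and siControl differ from libraries 1 and 2 of their groups.

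MDM4, which binds and inhibits p53, was at 61.7, 62.1 and 63.5 CPM in siIQGAP3, against 60.5, 61.9 and 54.1 CPM in siControl, and passed in none of the 4 comparisons with all libraries. With the third libraries left out it was lower in siIGF2BP1 and siSRF (log2 fold change -0.31 and -0.38, adjusted p = 0.000238 and 2.35e-05).

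Of the 4 genes that feed back on p53, MDM2 and FBXO22 rose in siIQGAP3. MDM2 was at 185, 182 and 189 CPM in siIQGAP3, against 42.1, 31.6 and 130.1 CPM in siControl. All siIQGAP3 libraries lay above all controls, and the third control was the nearest. The log2 fold change was 1.45 ± 0.52 (adjusted p = 0.0496), and the call was lost without any 1 of the 5 libraries other than the third siControl library (adjusted p = 0.0967 to 0.177). In the other knockdowns MDM2 was at 49.0, 44.5 and 71.9 CPM (siIGF2BP1), 51.4, 48.5 and 136 CPM (siSRF) and 57.2, 53.3 and 103 CPM (siFOXM1), with log2 fold changes of -0.30, 0.21 and 0.07 that did not pass. These ranges overlap that of siControl. FBXO22, an F-box protein of a ubiquitin ligase, was at 54.6, 52.2 and 50.9 CPM in siIQGAP3, against 39.2, 35.8 and 34.2 CPM in siControl (log2 fold change 0.53 ± 0.14, adjusted p = 0.0148; 0.50 and adjusted p = 0.055 without siIQGAP3 library 1). FBXO22 and NRG4 overlap on opposite strands over 1917 exon bases, so its counts are uncertain.

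ZMAT3, an RNA-binding zinc finger protein, was at 67.3, 59.8 and 63.6 CPM in siIQGAP3, against 16.7, 14.4 and 38.9 CPM in siControl. The groups did not overlap, and the difference did not pass (log2 fold change 1.44 ± 0.69, adjusted p = 0.127). It passed without the third siControl library (2.03, adjusted p = 0.0455). PPM1D, a phosphatase that dampens the p53 response, was at 29.8, 31.4 and 32.6 CPM in siIQGAP3, against 30.9, 33.1 and 29.1 CPM in siControl. In siFOXM1 PPM1D was at 43.7, 44.3 and 46.9 CPM, above all controls, without passing (log2 fold change 0.53 ± 0.18, adjusted p = 0.204).

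Among the 8 genes grouped by hand under cell cycle arrest, CCNG1 rose in siIQGAP3 and in siIGF2BP1, and BTG1 fell in siIQGAP3. The group also holds CCNK, a cyclin of transcription kinases. CDKN1A passed in none of the 4 comparisons with all libraries fitted together. CDKN1A, which encodes the cyclin-dependent kinase inhibitor p21, was at 151, 151 and 150.0 CPM in siIQGAP3, against 46.0, 53.6 and 92.2 CPM in siControl. It was at 54.1, 57.3 and 147 CPM in siIGF2BP1, 58.4, 63.6 and 285 CPM in siSRF, and 66.7, 68.3 and 153 CPM in siFOXM1. The siIQGAP3 libraries lay above all controls, and in the other knockdowns the third library was the highest of its group. The log2 fold changes were 0.43 ± 0.59 in siIGF2BP1, 1.09 ± 0.60 in siSRF, 0.59 ± 0.60 in siFOXM1 and 1.24 ± 0.60 in siIQGAP3 (adjusted p = 0.776, 0.448, 0.805 and 0.132). CDKN1A passed in siIQGAP3 with only the 2 groups compared (adjusted p = 0.0313). It also passed, with the third libraries left out, in siSRF, siFOXM1 and siIQGAP3 (0.25, 0.42 and 1.55, adjusted p = 0.00715, 7.96e-05 and 2.07e-13).

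CCNG1, which encodes cyclin G1, was the only member that passed in more than 1 of the 4 comparisons. CCNG1 was at 272, 259.7 and 185 CPM in siIGF2BP1, 239, 221 and 190.0 CPM in siSRF, 184, 185 and 201 CPM in siFOXM1 and 216, 223 and 228 CPM in siIQGAP3, against 164, 147 and 129 CPM in siControl. Every knockdown library lay above every control library. The log2 fold change was 0.70 ± 0.15 in siIGF2BP1 (adjusted p = 0.0437), 0.56 ± 0.15 in siSRF (0.0965), 0.37 ± 0.15 in siFOXM1 (0.328) and 0.60 ± 0.15 in siIQGAP3 (0.0114). The siIGF2BP1 call was lost without siIGF2BP1 library 1 or 2 (adjusted p = 0.226 and 0.212) and without siControl library 1, 2 or 3 (0.0659, 0.056 and 0.0639). The siIQGAP3 call was kept without any 1 library and with the third siControl library as the only control (log2 fold change 0.79, adjusted p = 0.0344).

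BTG1, an antiproliferative protein, was at 28.96, 29.8 and 30.5 CPM in siIQGAP3, against 84.2, 90.0 and 28.2 CPM in siControl. The groups overlapped, since the third control lay below every siIQGAP3 library. The log2 fold change was -1.18 ± 0.31 (adjusted p = 0.0121), and 0.08 (adjusted p = 0.816) with the third siControl library as the only control. The call was also lost without siControl library 1 or 2 (adjusted p = 0.056 and 0.0635). PLK2, a polo-like kinase, was at 71.8, 71.7 and 70.3 CPM in siIQGAP3, against 142, 153 and 35.4 CPM in siControl (log2 fold change -0.63, adjusted p = 0.257). The third control was again the lowest, and without it PLK2 passed (-1.05, adjusted p = 0.00295). PLK3 was at 25.0, 28.3 and 26.8 CPM in siIQGAP3, against 7.03, 8.25 and 18.5 CPM in siControl, with no overlap and a log2 fold change of 1.24 ± 0.57 that did not pass (adjusted p = 0.11; 1.80 and 0.0264 without the third siControl library). GADD45A, a stress sensor, was at 68.6, 65.5 and 65.1 CPM in siFOXM1 and 61.5, 66.4 and 63.3 CPM in siIQGAP3, against 50.2, 41.8 and 51.3 CPM in siControl, all above the controls without passing (adjusted p = 0.577 and 0.282). BTG2, a relative of BTG1, and CCNK, a cyclin that partners the transcription kinases CDK12 and CDK13, had log2 fold changes of 0.20 and 0.39 in siIQGAP3, neither of which passed. Without the third siControl library CCNK did (0.53, adjusted p = 0.00511).

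**Figure D3:**
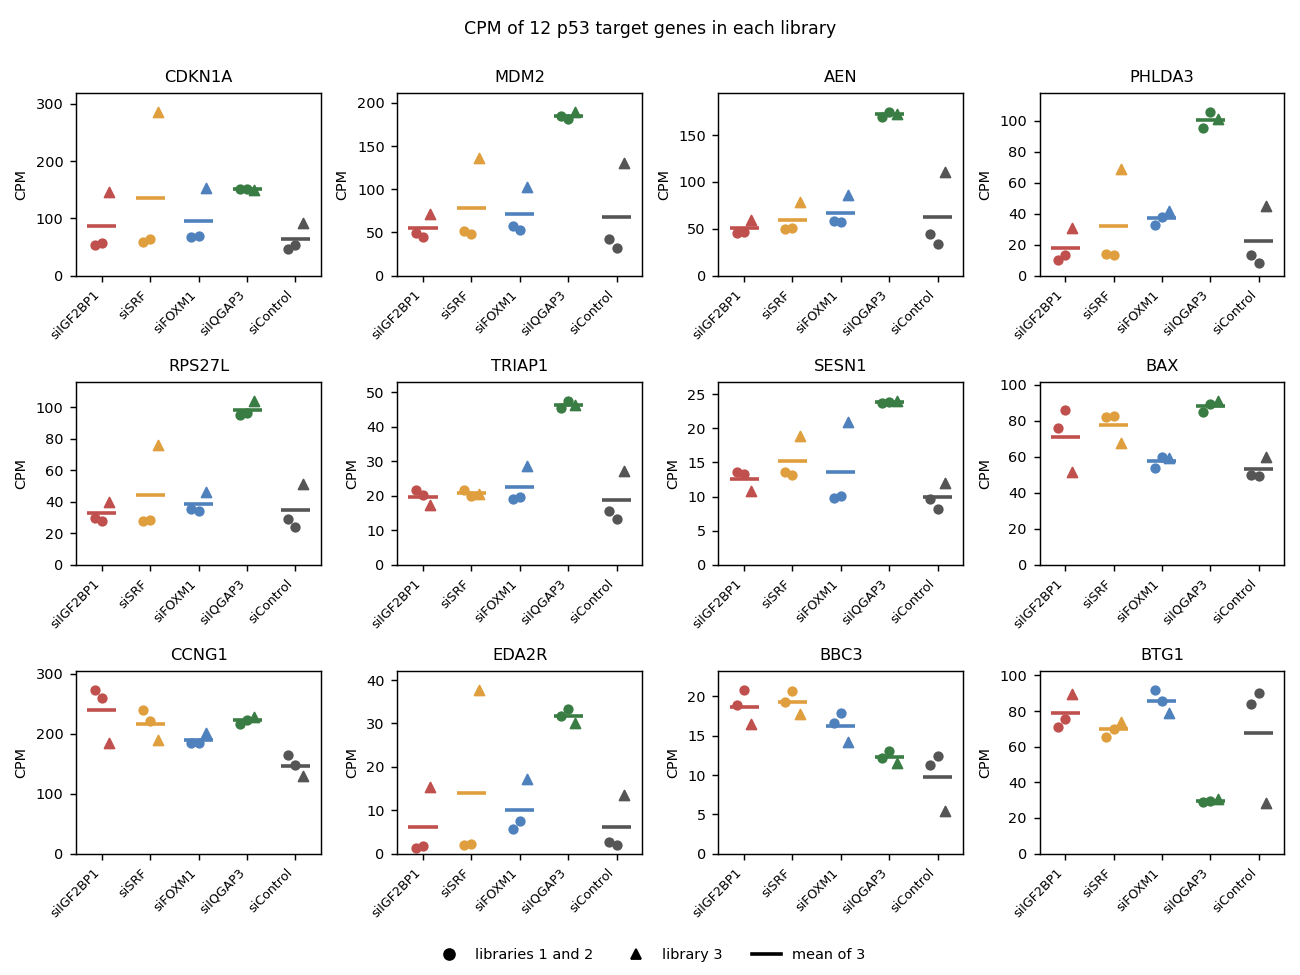
CPM of 12 p53 target genes in every library, 1 panel per gene, with siIGF2BP1, siSRF, siFOXM1, siIQGAP3 and siControl from left to right; circles are libraries 1 and 2, triangles library 3, and the line is the group mean. For MDM2, AEN and PHLDA3 the siControl triangle lies well above the siControl circles, and for BTG1 well below them.

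Of the 9 genes of the mitochondrial and nuclear death pathways, 5 rose in siIQGAP3 and none fell. BAX, which permeabilises the outer mitochondrial membrane, was at 84.6, 89.3 and 90.8 CPM in siIQGAP3, against 50.1, 49.0 and 59.6 CPM in siControl. There was no overlap, and the log2 fold change was 0.74 ± 0.17 (adjusted p = 0.00671). In siIGF2BP1 BAX was at 76.0, 85.9 and 51.4 CPM, in siSRF at 82.3, 82.7 and 67.7 CPM and in siFOXM1 at 53.7, 59.6 and 59.3 CPM, none of which passed (adjusted p = 0.258, 0.142 and 0.875). Libraries 1 and 2 of siIGF2BP1 and siSRF lay near the siIQGAP3 level, and siFOXM1 lay near siControl.

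AEN, whose upstream stretch is printed above, was at 169.7, 174 and 173 CPM in siIQGAP3, against 43.9, 34.2 and 110.4 CPM in siControl. It was at 45.5, 46.6 and 59.5 CPM in siIGF2BP1, 49.7, 50.6 and 78.8 CPM in siSRF, and 57.9, 57.5 and 86.4 CPM in siFOXM1. The siIQGAP3 libraries lay above all other libraries. The log2 fold change was 1.46 ± 0.36 (adjusted p = 0.0101), and 0.65 (adjusted p = 0.237) with the third siControl library as the only control. TRIAP1, a mitochondrial protein that restrains apoptosis, was at 45.3, 47.3 and 46.3 CPM in siIQGAP3, against 15.5, 13.2 and 27.2 CPM in siControl (log2 fold change 1.31 ± 0.24, adjusted p = 0.00227). The highest TRIAP1 level outside siIQGAP3 was 28.6 CPM, in the third siFOXM1 library. RPS27L, a relative of ribosomal protein S27, was at 94.7, 96.3 and 104 CPM in siIQGAP3, against 28.7, 23.7 and 50.9 CPM in siControl (log2 fold change 1.51 ± 0.38, adjusted p = 0.00988; 1.30 and adjusted p = 0.0508 without siControl library 2). Its likeness to RPS27 makes its counts uncertain. PHLDA3, a repressor of AKT, was at 95.4, 105 and 101 CPM in siIQGAP3, against 13.3, 7.96 and 45.1 CPM in siControl (log2 fold change 2.18 ± 0.72, adjusted p = 0.0355). The PHLDA3 call was lost without any 1 of the 5 libraries other than the third siControl library (adjusted p = 0.0691 to 0.129).

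BBC3, which encodes the BH3-only protein PUMA, had its lowest levels among the knockdowns in siIQGAP3. BBC3 was at 18.9, 20.8 and 16.5 CPM in siIGF2BP1, 19.3, 20.7 and 17.8 CPM in siSRF and 16.6, 17.9 and 14.1 CPM in siFOXM1, and at 12.2, 13.1 and 11.6 CPM in siIQGAP3, against 11.3, 12.4 and 5.42 CPM in siControl. All libraries of siIGF2BP1, siSRF and siFOXM1 lay above all controls, and siIQGAP3 overlapped them. None of the log2 fold changes passed, at 0.95 ± 0.25 in siIGF2BP1 (adjusted p = 0.0941), 0.99 ± 0.25 in siSRF (0.0763), 0.74 ± 0.25 in siFOXM1 (0.217) and 0.34 in siIQGAP3 (0.313). Without the third siControl library BBC3 passed in siIGF2BP1 and siSRF (log2 fold change 0.66 and 0.70, adjusted p = 0.04 and 0.0179), as it did without siControl library 2 (1.16 and 1.21, adjusted p = 0.0436 and 0.042). PMAIP1, which encodes the BH3-only protein NOXA, was at 84.5, 84.1 and 54.2 CPM in siIGF2BP1, 95.3, 83.1 and 57.0 CPM in siSRF, 42.5, 41.5 and 111 CPM in siFOXM1 and 62.9, 66.9 and 65.1 CPM in siIQGAP3, against 40.6, 40.5 and 58.1 CPM in siControl, and passed in none (adjusted p = 0.381, 0.342, 0.661 and 0.299). APAF1, the core of the apoptosome, was at 51.5, 43.3 and 44.8 CPM in siIQGAP3, against 25.3, 22.4 and 50.3 CPM in siControl, and TP53INP1, an autophagy and stress protein, was at 23.4, 24.2 and 24.5 CPM in siIQGAP3, against 15.1, 15.7 and 7.62 CPM in siControl. APAF1 overlapped the controls and TP53INP1 did not, and neither passed (adjusted p = 0.209 and 0.134). Without the third siControl library APAF1 passed (0.96, adjusted p = 0.00612).

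Of the 5 death receptor genes only TNFRSF10A passed, in siIQGAP3. TNFRSF10A, a receptor of the death ligand TRAIL, was at 26.7, 25.7 and 26.9 CPM in siIQGAP3, against 10.0, 10.6 and 14.5 CPM in siControl (log2 fold change 1.17 ± 0.40, adjusted p = 0.0397). The groups did not overlap, and the call was lost without any 1 of the 5 libraries other than the third siControl library (adjusted p = 0.0824 to 0.131). The second TRAIL receptor, TNFRSF10B, was at 111, 108 and 207 CPM in siIGF2BP1, 105, 108 and 261 CPM in siSRF, 153, 152 and 183 CPM in siFOXM1 and 168, 158 and 163 CPM in siIQGAP3, against 118, 126 and 117 CPM in siControl. All libraries of siFOXM1 and siIQGAP3 lay above the controls without passing. TNFRSF10C, a decoy receptor of TRAIL, was at 15.2, 15.3 and 15.8 CPM in siIQGAP3, against 0.662, 0.38 and 7.53 CPM in siControl (log2 fold change 2.42 ± 1.54, adjusted p = 0.243). EDA2R, a receptor of ectodysplasin A2, was at 31.6, 33.3 and 30.1 CPM in siIQGAP3, against 2.75, 1.93 and 13.4 CPM in siControl (log2 fold change 2.39 ± 1.23, adjusted p = 0.151). For TNFRSF10C and EDA2R the groups did not overlap, and the spread within siControl was wide. Without the third siControl library both passed (4.87 and adjusted p = 0.0438 for TNFRSF10C, 3.76 and 0.0452 for EDA2R). FAS was at 16.9, 14.7 and 25.3 CPM in siIGF2BP1, 14.97, 12.8 and 26.8 CPM in siSRF, 17.5, 16.9 and 23.5 CPM in siFOXM1 and 12.6, 11.4 and 11.2 CPM in siIQGAP3, against 21.9, 22.8 and 10.0 CPM in siControl. No FAS difference passed (log2 fold change -0.64 ± 0.34 in siIQGAP3, adjusted p = 0.171; -0.93 and 0.0201 without the third siControl library), and FAS shares 380 exon bases with ACTA2 on the opposite strand.

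Of the 5 metabolic and redox genes, SESN1, TP53I3 and SPATA18 rose in siIQGAP3 and FDXR fell. SESN1, a sestrin that restrains mTORC1, was at 23.8, 23.9 and 23.98 CPM in siIQGAP3, against 9.58, 8.17 and 11.9 CPM in siControl (log2 fold change 1.27 ± 0.28, adjusted p = 0.0058). TP53I3, a quinone oxidoreductase, was at 41.3, 45.4 and 46.5 CPM in siIQGAP3, against 30.8, 32.3 and 28.7 CPM in siControl (log2 fold change 0.54 ± 0.14, adjusted p = 0.014; 0.50 and adjusted p = 0.0549 without siIQGAP3 library 3). For both genes the siIQGAP3 libraries lay above all controls. SPATA18, which acts in mitochondrial quality control, was at 17.5, 17.3 and 16.02 CPM in siIQGAP3, against 5.15, 4.53 and 4.46 CPM in siControl. Its controls were close together, yet the third libraries of the other knockdowns reached 12.8, 24.2 and 15.1 CPM, beside 4.63 to 6.18 CPM in their libraries 1 and 2. The log2 fold change in siIQGAP3 was 1.84 ± 0.61 (adjusted p = 0.0369), and the call was lost without any 1 of the 6 libraries (adjusted p = 0.0531 to 0.111). TIGAR, a bisphosphatase that lowers glycolytic flux, was at 109, 114 and 113 CPM in siIQGAP3, against 34.6, 30.7 and 84.7 CPM in siControl, above all controls without passing (log2 fold change 1.16 ± 0.44, adjusted p = 0.061; 1.78 and 0.00401 without the third siControl library).

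FDXR, a mitochondrial ferredoxin reductase, was the only member with all siIQGAP3 libraries below all controls, beside 23.1% of all genes. FDXR was at 17.6, 21.1 and 18.6 CPM in siIQGAP3, against 36.4, 40.7 and 27.0 CPM in siControl (log2 fold change -0.86 ± 0.15, adjusted p = 0.00187). In siIGF2BP1 it was at 35.4, 36.0 and 33.4 CPM, in siSRF at 37.8, 35.5 and 31.0 CPM and in siFOXM1 at 29.4, 28.9 and 27.7 CPM, within the range of the controls. With the third siControl library as the only control the difference in siIQGAP3 was -0.50 (adjusted p = 0.0554).

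The 4 repair and nucleotide genes went separate ways. RRM2B, a ribonucleotide reductase subunit, was at 55.9, 51.8 and 55.0 CPM in siIQGAP3, against 16.2, 12.3 and 36.7 CPM in siControl (log2 fold change 1.32 ± 0.45, adjusted p = 0.0405). POLH, the translesion DNA polymerase eta, was at 19.9, 17.9 and 18.9 CPM in siIQGAP3, against 40.3, 48.7 and 16.8 CPM in siControl (log2 fold change -0.90 ± 0.29, adjusted p = 0.0308). RRM2B did not overlap the controls, whereas POLH did, with the third control below every siIQGAP3 library. Without any 1 of the 5 libraries other than the third siControl library both calls were lost (adjusted p = 0.0804 to 0.157 for RRM2B and 0.0716 to 0.165 for POLH), and against that library alone POLH was at 0.17 (adjusted p = 0.665). XPC and DDB2, which recognise damage in nucleotide excision repair, were at 64.1, 61.6 and 64.0 CPM (XPC) and 37.5, 35.6 and 37.8 CPM (DDB2) in siIQGAP3, against 54.6, 55.9 and 77.6 CPM (XPC) and 30.3, 34.2 and 37.5 CPM (DDB2) in siControl. Both overlapped the controls, with log2 fold changes of 0.01 and 0.12.

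The spread within groups followed the column order for many members. In siSRF the third library was at least 1 log2 unit above the mean of libraries 1 and 2 for 15 members, beside 14.5% of all genes, and in siIGF2BP1 and siFOXM1 for 7 and 8 members, beside 8.96% and 6.14%. In siControl it was so for 10 members, beside 22.2%, and for 6 members (BBC3, FAS, TP53INP1, PLK2, POLH and BTG1) the third library was at least 1 log2 unit below, beside 19.2%. No member moved down by that much in siIGF2BP1, siSRF or siFOXM1, beside 7.79%, 11.4% and 8.92% of all genes, and none moved either way in siIQGAP3. The median difference of library 3 from libraries 1 and 2 over the members was 0.38 log2 units in siIGF2BP1, 0.79 in siSRF, 0.31 in siFOXM1 and 0.39 in siControl. ZMAT3, EDA2R and TNFRSF10C were at least 1 log2 unit higher in the third library of all 4 of these groups, beside 0.975% of all genes. In all 4 groups 15 members, CDKN1A, MDM2 and AEN among them, were highest in the third library, beside 11.1%. FAS, TNFRSF10B, TP53INP1, PLK2, PPM1D and SPATA18 were highest in the third library of siIGF2BP1, siSRF and siFOXM1 but not of siControl, beside 8.02%. EDA2R shows the size of this spread, with 1.23, 1.73 and 15.4 CPM in siIGF2BP1, 2.01, 2.13 and 37.6 CPM in siSRF and 5.56, 7.58 and 17.2 CPM in siFOXM1. The third siSRF library was the highest of all 15 libraries for 12 members, beside 8.82% of all genes, and an siIQGAP3 library was the highest for 16, beside 22.6%. What the third libraries share is not given in the labels.

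**Figure D4:**
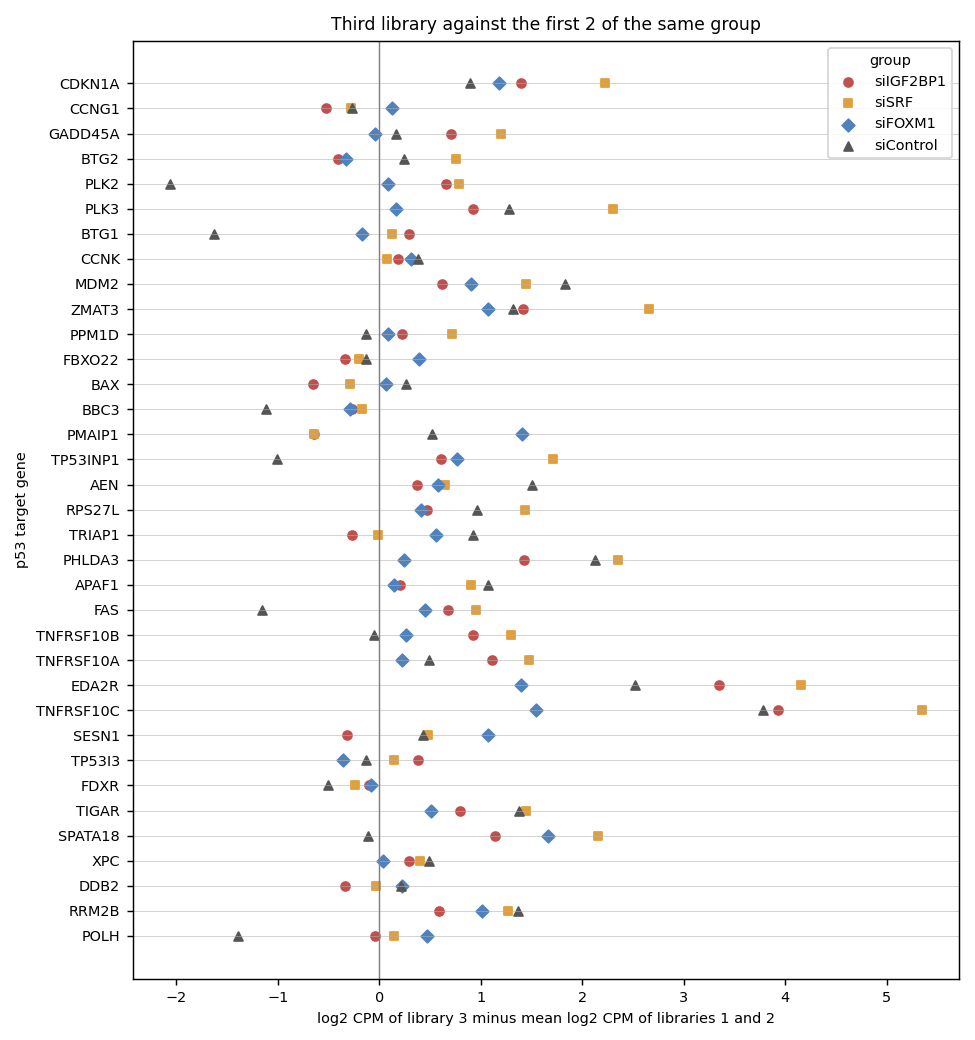
Difference of library 3 from the mean of libraries 1 and 2, in log2 CPM, for each p53 target gene in siIGF2BP1, siSRF, siFOXM1 and siControl. Points of siSRF have a median of 0.79, and those of siControl reach beyond 1 in either direction.

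Which libraries enter bears on most of the siIQGAP3 calls. With all 3 controls, all siIQGAP3 libraries lay above all controls for 25 members, beside 25.2% of all genes, and they lay above the third control for 31 members, beside 42.8%, with XPC and FDXR below it. Without the third control library 19 members rose and 5 fell, beside 26.4% and 30.1% of all genes. With the third libraries of the other 4 groups left out 28 rose and 5 fell, beside 40.8% and 41.9%, in a fit that rests on the small spread between libraries 1 and 2. With the third siControl library as the only control, where that lone library is assumed to vary like the other groups, 2 members rose (BBC3 and CCNG1) and none fell, beside 3.63% and 7.2% of all genes. BBC3 then stood at a log2 fold change of 1.18 (adjusted p = 0.00504). Without siControl library 1 or 2, 8 or 7 members rose and 1 fell, and without siIQGAP3 library 1, 2 or 3, 7, 8 or 7 rose and 2 fell. The share of all genes called in those fits was not computed, so a loss of calls particular to the members cannot be read from them. AEN, BAX, CCNG1, SESN1, TRIAP1 and FDXR kept their calls without any 1 library.

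**Figure D5:**
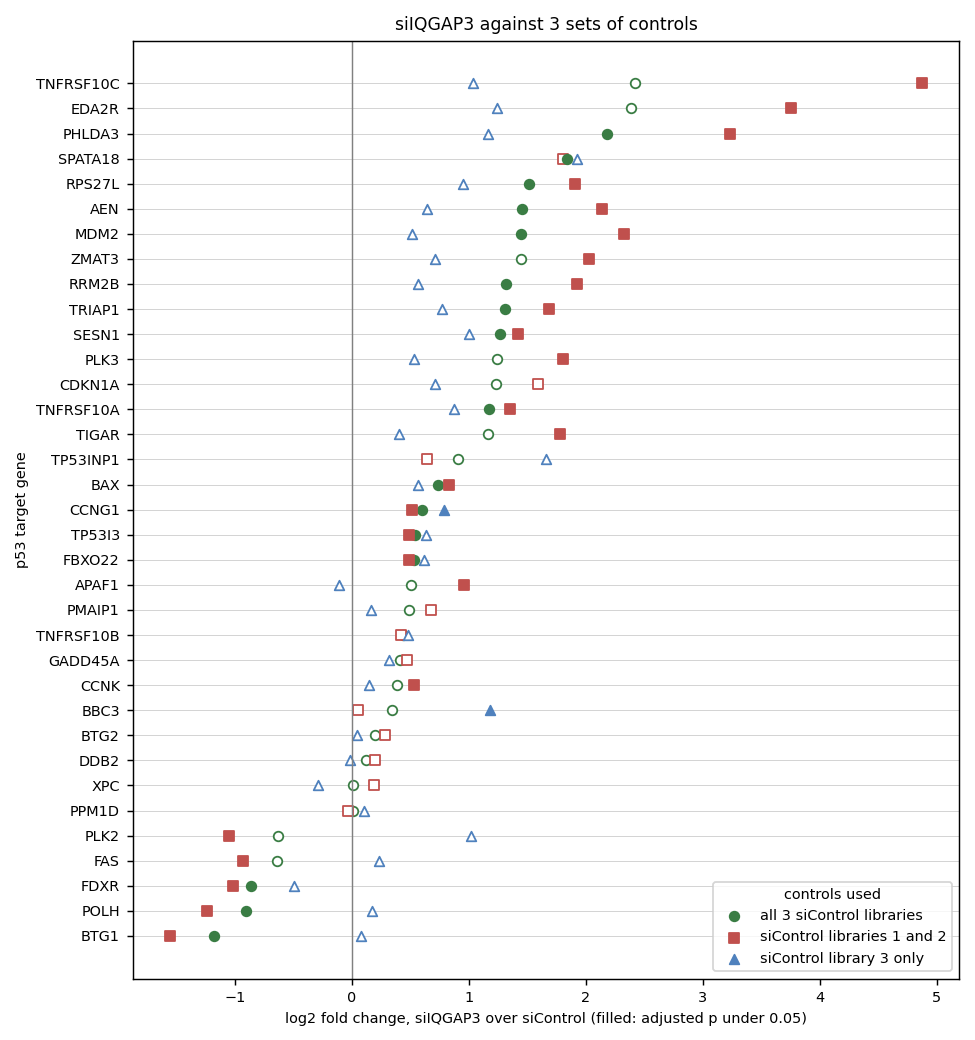
Log2 fold change of each p53 target gene in siIQGAP3 against all 3 siControl libraries, against libraries 1 and 2 only, and against library 3 only. CDKN1A, MDM2, AEN and most others stay above 0 under each choice, BTG1, POLH, FAS and PLK2 lie below 0 except against library 3, and FDXR lies below 0 under each.

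In the other knockdowns the members that stood clear of siControl all lay above it. They were 11.4% of the members in siIGF2BP1, 17.1% in siSRF and 14.3% in siFOXM1. All 3 libraries lay above all controls for 4 members in siIGF2BP1 (CCNG1, BBC3, FBXO22 and SPATA18, beside 7.74% of all genes), 6 in siSRF (CCNG1, BAX, BBC3, SESN1, TP53I3 and FBXO22, beside 6.95%) and 5 in siFOXM1 (CCNG1, BBC3, TNFRSF10B, GADD45A and PPM1D, beside 7.55%). No member lay below all controls in any of the 3, beside 9.57%, 7.2% and 8.15% of all genes. Without the third siControl library, BBC3 rose in siIGF2BP1 and siSRF, TRIAP1 rose in siFOXM1, and FDXR and POLH fell in siFOXM1. The share of all genes called in those 3 comparisons is not given for that fit, so these calls are not a result about the members. A fit without the third libraries had 10, 11 and 19 members that rose in siIGF2BP1, siSRF and siFOXM1, beside 22%, 24.5% and 26.3% of all genes, and 8, 7 and 5 that fell, beside 28.7%, 31.2% and 28.3%.

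Knockdowns were also compared with each other in 6 contrasts of the same fit. Between siIGF2BP1, siSRF and siFOXM1 no member differed at an adjusted p under 0.05 by edgeR's quasi-likelihood test, by DESeq2 or by limma-voom. In these contrasts edgeR's test called 0% of all genes higher and 0.00533%, 0.0107% and 0.00533% lower (siIGF2BP1 over siSRF, siIGF2BP1 over siFOXM1, and siSRF over siFOXM1). That share was not computed for DESeq2 or limma-voom. At an unadjusted p under 0.05, 0, 0 and 1 members were higher, beside 0.101%, 1.15% and 1.55% of all genes, and 0, 1 and 0 lower, beside 0.181%, 3.69% and 2.47%. Once the third libraries were left out, 1 was higher and 0 lower in siIGF2BP1 than in siSRF (beside 1.44% and 0.374% of all genes). In that setting 8 were higher and 16 lower in siIGF2BP1 than in siFOXM1 (26.5% and 28.5%), and likewise in siSRF (27.3% and 30.8%). Against siIQGAP3, 13 members were lower and 4 higher in siIGF2BP1 (beside 22% and 28% of all genes), 4 lower and 4 higher in siSRF (17% and 25.8%), and 11 lower and 3 higher in siFOXM1 (13.9% and 22.9%). The 13 lower in siIGF2BP1 became 5 and 4 without siIGF2BP1 library 1 or 2 and 8 without siIQGAP3 library 3. The 4 lower in siSRF became 20 without the third siSRF library and 2 without siSRF library 1 or 2 or any 1 siIQGAP3 library. Without any 1 siIQGAP3 library 2 were higher in siSRF in place of 4. The 11 lower in siFOXM1 became 3 without siFOXM1 library 1 or 2 and 4, 6 and 4 without siIQGAP3 library 1, 2 or 3, and 1 was higher in place of 3 without siIQGAP3 library 1. AEN, RPS27L, TRIAP1 and CCNK were lower in all 3 than in siIQGAP3. The AEN and TRIAP1 calls were kept without any 1 library of the contrast, whereas CCNK lost its call in each contrast without siIQGAP3 library 1 or 3 or library 1 or 2 of the other knockdown, and in siSRF also without siIQGAP3 library 2 (adjusted p = 0.0619 to 0.132). RPS27L lost its siSRF call without any 1 of the 5 libraries other than the third siSRF library (0.0541 to 0.105) and its siFOXM1 call without siFOXM1 library 1 or 2 (0.0515 and 0.0542). The AEN difference was -1.77 in siIGF2BP1, -1.53 in siSRF and -1.36 in siFOXM1 (adjusted p = 0.0025, 0.0062 and 0.0125). FDXR and BTG1 were higher in all 3 than in siIQGAP3, with FDXR differences of 0.87, 0.86 and 0.58 (adjusted p = 0.00113, 0.00148 and 0.0115; the last was 0.0524 without siIQGAP3 library 1). MDM2 was lower in siIGF2BP1 than in siIQGAP3 (log2 difference -1.75, adjusted p = 0.0161; 0.056 and 0.0597 without siIGF2BP1 library 1 or 2), and BAX was lower in siFOXM1 (-0.62, adjusted p = 0.0142; 0.0552 without siFOXM1 library 1). The 3 contrasts share the siIQGAP3 libraries. A test of any difference among the 5 groups passed for 10 members, beside 37% of all genes, among them BBC3 (adjusted p = 0.0301). It passed for 3 members without any 1 siIQGAP3 library, for 23 without the third siSRF library and for 19 without the third siControl library. The share of all genes called was not computed for these fits, nor for the contrasts above with 1 library left out. Such changes in count are therefore not a result about the members.

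Other genes of the pathway gave mixed counts in siIQGAP3, to be read beside the 10.8% of all genes that rose and the 21.7% that fell. Of 22 genes listed as regulators of p53, which include its relative TP63, 5 rose and 4 fell, TP63 being among those that fell. Among the 22 genes COP1 and RCHY1, ubiquitin ligases of p53, rose (log2 fold change 0.77 ± 0.11 and 0.83 ± 0.14, adjusted p = 0.000685 and 0.00161), as did TP53BP1, a DNA damage adaptor (0.85 ± 0.16, adjusted p = 0.00229). CDKN2A, whose ARF product restrains MDM2, fell (-3.78 ± 0.96, adjusted p = 0.0108), with 11.1, 11.6 and 12.2 CPM in siIQGAP3, against 217, 257 and 4.16 CPM in siControl. The third control lay below siIQGAP3 for CDKN2A. Of 54 further p53 targets 8 rose and 9 fell, with a median log2 fold change of 0.46. STEAP3, a metalloreductase, was among those that rose (1.02 ± 0.20, adjusted p = 0.00327), and MR1, an antigen-presenting molecule, among those that fell (-3.52 ± 0.48, adjusted p = 0.000422). Of 28 genes repressed through p21 and the DREAM complex, CENPF rose and E2F2 fell. Of 6 CDK inhibitors none rose and 3 fell (CDKN2C, CDKN2A and CDKN2D). Of 19 tested apoptosis partners MCL1, BAK1, FADD and DIABLO rose and BAD fell. Of 9 RNA quality and stress genes HSPA1A rose and EGR1, FOS and ATF4 fell, and their part in the results was not tested. Of the genes named for these lists, CENPF, CDKN2D, BAK1, FADD, DIABLO, BAD, HSPA1A, FOS and ATF4 lost their calls without any 1 of the 5 libraries other than the third siControl library (adjusted p = 0.0522 to 0.166). Of the 54 further p53 targets, SESN2, a relative of SESN1, rose and GRHL3 fell in siIGF2BP1 and in siSRF. The SESN2 values were 0.77 and 0.91 (adjusted p = 0.00773 and 0.00259, for siIGF2BP1 0.0502 and 0.0544 without siIGF2BP1 library 1 or 2). In siFOXM1 KITLG and ATF3 rose and GRHL3 fell. Over all genes, 0.288%, 0.368% and 0.288% rose and 1.33%, 1.2% and 0.832% fell in siIGF2BP1, siSRF and siFOXM1. For GRHL3, KITLG, ATF3 and TP63 no fit with a library left out is given.

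Overlapping genes limit some of these values. Exons of 18 members overlap those of another gene in the GENCODE v29 annotation of GRCh38, 16 of them on the opposite strand and 10 of these with a protein-coding gene. The longest such overlap named here is that of CCNK with CCDC85C, over 4893 bases. On the same strand, TIGAR shares 1711 exon bases with the protein-coding gene AC008012.1. MDM2, BBC3, BTG1, PHLDA3 and TNFRSF10C also overlap a neighbour on the same strand. Strand cannot separate such reads, so counts of these genes are uncertain too.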

How the data were processed

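Per the labels' protocols, NTERA2 RNA was read on DNBSEQ in pairs of 100 bp. STAR, SAMtools and featureCounts and the build GRCh37 are named in the submitters' processing notes, without versions, and for annotation and strand setting the sources used here give nothing. The authors deposited raw counts per gene symbol (28207 symbols, 3175 with no count) and a normalised signal, which was used only to check the members' counts. Library totals were 35275570 to 44996064. From the counts, 18760 genes were kept by filterByExpr, scaled by TMM and fitted with edgeR 4.0.16 (R 4.3.3, glmQLFit and glmQLFTest) in 1 fit over the 5 groups (15 libraries, 10 residual degrees of freedom). P-values were adjusted by Benjamini-Hochberg over all genes tested. CPM use the TMM-adjusted library size, log2 CPM a prior count of 2, and the SE comes from the joint fit. The fit was tested on simulated data with libraries drawn independently. Those data held no shared shift of the third libraries, so the test does not bear on such a shift. Columns carry the siRNA and no replicate number.

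The members and gene lists were chosen with earlier results of these data known, and the lists were set by hand. Values in every siIQGAP3 and siControl library are given for members that passed in any comparison with siControl. They are also given for those with groups that do not overlap and a log2 change of 1 or more in either direction. The same holds for CDKN1A, MDM2, BAX, BBC3, PMAIP1, FAS, TNFRSF10B, GADD45A, XPC, DDB2 and TIGAR. Values in the other knockdowns are given for only some of these members. Other values of single genes in the text were chosen after they were seen. Of the other lists, up to 4 genes with the smallest p-values are named, with CENPF, E2F2 and the rest of the called genes of short lists. Alternatives were DESeq2 1.42.0, limma-voom (limma 3.58.1), RLE size factors, library size only, other filters, only the 2 groups compared, each library left out, the third libraries left out and the third siControl library as the only control. Added after seeing the data were a term for the third library, with siIQGAP3 left out, and the alternatives for contrasts between knockdowns and for genes that are not members. Promoter stretches are from RefSeq (GRCh38.p14), which held entries for 27 members.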

Additional observations from a re-analysis of the deposited data

How the results depend on the processing

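In siIQGAP3, where 13 members rose and 3 fell, the counts were 15 and 3 by DESeq2, which gave an adjusted p for 32 of the 35, 15 and 1 by limma-voom, 13 and 3 with RLE size factors or no filter, 10 and 3 with library size only, 12 and 3 with a minimum of 10 counts in every library, and 11 and 1 with only the 2 groups compared, 10 of which were among the 16. Leaving out 1 library gave 7 to 19 higher and 1 to 5 lower in siIQGAP3, 0 to 1 higher in siIGF2BP1, 0 to 1 higher in siSRF, and 0 to 1 higher and 0 to 2 lower in siFOXM1. The 1 member higher in siIGF2BP1 became 2 by DESeq2 and 0 with no filter or only the 2 groups. In siSRF, where none was called, 2 were by DESeq2, and BBC3 alone by limma-voom, with library size only and with a term for the third library, which was added after seeing the data. With the third libraries left out, 10, 11, 19 and 28 rose and 8, 7, 5 and 5 fell in siIGF2BP1, siSRF, siFOXM1 and siIQGAP3. With the third siControl library as the only control, 5, 5, 4 and 2 rose and 2, 1, 1 and 0 fell in the same order. The test of any difference among the 5 groups called 19 members by DESeq2 in place of 10, 3 to 23 with 1 library left out and 35 with the third libraries left out. Against siIQGAP3, the 4 members lower in siSRF became 10 by DESeq2 and 8 by limma-voom, and the 11 lower in siFOXM1 became 6 with library size only or no filter. With the third libraries left out, 9 were higher and 22 lower in siIGF2BP1, 7 and 23 in siSRF and 8 and 25 in siFOXM1 than in siIQGAP3. In that setting 1 was higher and 0 lower in siIGF2BP1 than in siSRF, and 8 were higher and 16 lower in siIGF2BP1, and likewise in siSRF, than in siFOXM1. With 1 library left out, 3 to 4 were higher and 4 to 14 lower in siIGF2BP1, 2 to 4 and 2 to 20 in siSRF and 1 to 2 and 3 to 12 in siFOXM1 than in siIQGAP3. The cause of these shifts was not tested. Shares of all genes were computed only for the settings where they are given above. None was computed for the contrasts with siIQGAP3, or for the test among the 5 groups, with the third libraries left out. Those member counts therefore have no share of all genes beside them.

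Among values called with all libraries or in the alternative, direction turned in 19 cases, each with the third libraries left out or the third control used alone. Uncalled values turned more often: 13, 10, 20 and 33 of 35 members in siIGF2BP1, siSRF, siFOXM1 and siIQGAP3 kept their sign whichever 1 library was left out. With the third libraries left out, log2 fold changes in siIGF2BP1 were -0.30 for BTG1, -0.71 for EDA2R, -0.55 for FAS, 0.29 for MDM2, -0.28 for POLH, -0.20 for TNFRSF10B and -0.30 for TP53INP1. In siSRF they were 0.31 for AEN, -0.41 for BTG1, -0.43 for POLH, -0.36 for TNFRSF10A, -0.24 for TNFRSF10B and -0.48 for TP53INP1. In siFOXM1 they were -0.40 for FAS, 0.30 for TIGAR and -0.39 for TP53INP1. With the third siControl library as the only control they were 0.71 for POLH in siFOXM1, and 0.082 for BTG1 and 0.17 for POLH in siIQGAP3. No paired analysis was possible because the columns carry no replicate numbers, and the term for the third library marks column position only. Counting error weighs most on low members such as TNFRSF10C, at 0.38 CPM in the second siControl library.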
